A study of Mus musculus with 38 samples.

Results

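Lipid droplets are the stores of neutral fat inside cells, and 10 genes of their coat, synthesis and breakdown are described here: Hilpda, Plin2, Plin3, Dgat1, Dgat2, Pnpla2, Abhd5, Lipe, G0s2 and Mgll. They were chosen by symbol, with earlier results of these data known, and each matched 1 Ensembl identifier among the 55487 genes of the deposited count tables. RNA had been sequenced from 38 mouse libraries in 18 groups, held in 3 tables. The first table holds BV2 cells, an immortalised microglial line, and GL261 cells, a glioma line stably carrying pEGFP-N1. Each line was grown alone or with the other, at 21% oxygen (normoxia) or below 0.1% oxygen (hypoxia) for 16 h, with 2 libraries per group. The second table holds bone marrow-derived macrophages (BMDM), primary cells of WT genotype, alone (2 libraries per group) or with GL261 cells (3 per group), at the same oxygen levels. The third holds BV2 cells and BMDM grown alone with DMSO in normoxia, with DMSO in hypoxia, or in hypoxia with panobinostat at 10 nM, with 2 libraries per group. Panobinostat blocks histone deacetylases, the enzymes that remove acetyl groups from histones. No group had panobinostat in normoxia, so the drug is described in hypoxia only. Co-cultures were seeded with 2 GL261 cells per BV2 cell or 1 per BMDM, and BV2 cultures had less serum than BMDM cultures. All cells were fixed in glyoxal before RNA was taken, and the labels used here do not say how co-cultured cells were parted.

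A lipid droplet is a core of triacylglycerol and sterol esters under a single layer of phospholipid, to which coat proteins of the perilipin family bind. The enzymes DGAT1 and DGAT2 make triacylglycerol, and adipose triglyceride lipase (Pnpla2), hormone-sensitive lipase (Lipe) and monoacylglycerol lipase (Mgll) then take off its fatty acids in turn. Abhd5 activates adipose triglyceride lipase, while Hilpda and G0s2 inhibit it. Hilpda is a known target of the hypoxia-inducible factors, and macrophages and microglia are known to gather droplets when oxygen is low.

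Genomic positions were taken from GENCODE vM21 (GRCm38, the build of mm10). Hilpda (ENSMUSG00000043421) lies on the plus strand at chr6:29272488-29275446. Plin2 (ENSMUSG00000028494) lies on the minus strand at chr4:86648386-86670060, and Plin3 (ENSMUSG00000024197) on the minus strand at chr17:56277476-56292873. Dgat1 (ENSMUSG00000022555) is at chr15:76502015-76511953 and Dgat2 (ENSMUSG00000030747) at chr7:99153658-99182719, both on the minus strand. Pnpla2 (ENSMUSG00000025509) is at chr7:141455198-141460743 and Abhd5 (ENSMUSG00000032540) at chr9:122351608-122381524, both on the plus strand. Lipe (ENSMUSG00000003123) is at chr7:25379527-25398710 and G0s2 (ENSMUSG00000009633) at chr1:193272161-193273217, both on the minus strand, and Mgll (ENSMUSG00000033174) at chr6:88724412-88828360 on the plus strand. All 10 are protein-coding. An antisense gene covers 15.6% of the exon bases of Lipe, with 1 to 58 counts per library. For Abhd5 an antisense gene covers 15.95%, with 0 to 3 counts, and for Mgll 3.29%, with 0 to 130 counts. The library kit keeps strand, but whether the counting used it is not stated, so counts of these 3 genes may share reads with their antisense partners.

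The sequences before the start sites of Hilpda, Plin2, Plin3 and G0s2 are shown because the results under hypoxia turn on the perilipins and the lipase inhibitors. They are the 250 bases before the start in RefSeq (GRCm38.p6), which held a window for 8 of the 10 genes. Capitals mark ACGTG or GCGTG, the core letters of the hypoxia response element, or their reverse complements CACGT and CACGC. Both strands were searched, and CACGTG holds the first motif on both strands, which then overlap. The window before the first Hilpda start held neither motif, while the window before its second start held 3, of which the sites are printed with the bases around them. The Plin2 window held 1, on the opposite strand, and the Plin3 window none. The Plin3 window lies inside the GENCODE interval of Plin3 given above, so this absence holds for that RefSeq start only.
Hilpda, first start, chr6:29272238-29272487, plus strand: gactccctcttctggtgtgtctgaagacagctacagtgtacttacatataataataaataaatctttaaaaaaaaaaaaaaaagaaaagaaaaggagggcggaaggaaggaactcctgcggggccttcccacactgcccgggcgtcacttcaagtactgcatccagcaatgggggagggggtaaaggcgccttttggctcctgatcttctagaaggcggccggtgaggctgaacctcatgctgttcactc
Hilpda, second start, chr6:29272503-29272532, plus strand: caaccgcgagccGCGTGctttccgtgactc
Hilpda, second start, chr6:29272571-29272600, plus strand: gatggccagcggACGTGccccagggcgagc
Hilpda, second start, chr6:29272606-29272625, plus strand: caggttcggtacGCGTGcgc
Plin2, chr4:86670060-86670309, minus strand: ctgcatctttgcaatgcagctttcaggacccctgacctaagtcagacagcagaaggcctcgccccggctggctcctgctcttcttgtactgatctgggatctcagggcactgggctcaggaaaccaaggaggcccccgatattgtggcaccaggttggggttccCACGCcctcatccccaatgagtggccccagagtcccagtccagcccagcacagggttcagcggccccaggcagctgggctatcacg
Plin3, chr17:56290512-56290761, minus strand: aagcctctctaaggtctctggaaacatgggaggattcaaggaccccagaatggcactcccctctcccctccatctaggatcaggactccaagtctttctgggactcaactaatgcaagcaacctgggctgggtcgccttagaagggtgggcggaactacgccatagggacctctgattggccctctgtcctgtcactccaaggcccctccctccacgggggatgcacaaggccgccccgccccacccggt
G0s2, chr1:193273313-193273342, minus strand: cacacagcagggGCGTGcactactcgtggt
The 3 Hilpda motifs began 111, 43 and 8 bases before the second start, the Plin2 motif 86 bases and the G0s2 motif 142 bases before their starts. The 3 Hilpda sites lie after the first start, inside the GENCODE interval of Hilpda given above. Of the 8 genes with a window, 6 held a motif in at least 1 of their 11 windows (7 of 11). These were Hilpda, Plin2, G0s2, Abhd5, Lipe and Mgll, while Plin3 and Pnpla2 held none. The motifs of Abhd5, Lipe and Mgll are not printed. Under hypoxia in GL261 cells grown alone, Plin2 and G0s2 rose while Lipe and Mgll fell. Of the genes without a motif, Pnpla2 rose there and Plin3 fell. Over all 32851 windows of this length in the table, 12679 (38.6%) held one. A match is a run of letters and was not tested as a binding site.

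Libraries held 9634700 to 27238933 counts. The labelled cell types were checked against marker genes in CPM, which scale each count to a fixed library total. BV2 cells grown alone had 7 of 9 myeloid markers above 1 CPM in every library, but Sall1 and Siglech, markers of microglia in tissue, had no counts. GL261 cells had 7 of 8 glioma and neural markers above 1 CPM, and BMDM grown alone had 9 of 9 myeloid markers. BMDM grown alone also had 3 of 8 glioma and neural markers above 1 CPM in every library (sum 148.7 to 283.5 CPM). GL261 cells grown alone likewise had 3 of 5 stromal markers above 1 CPM (sum 569.5 to 938.8 CPM). Adipocyte markers other than Lipe were near 0 in all of these. In the panobinostat experiment, however, the BMDM libraries carried more stromal RNA than those of the earlier BMDM experiment. The summed level of 5 stromal markers, among them Col1a1 and Col1a2, was 23237 and 20453 CPM with DMSO in normoxia, 2673 and 13839 CPM with DMSO in hypoxia, and 8757 and 14357 CPM with panobinostat. In BMDM grown alone in the earlier experiment it ranged from 105.1 to 226.4 CPM. In BMDM co-cultures it ranged from 70.8 to 594.6 CPM, the highest in the third hypoxic library. The summed level of 9 myeloid markers in the same panobinostat-experiment libraries was 7700 and 5561 CPM, then 2300 and 3736 CPM, then 611.3 and 1739 CPM in that order of groups. All 6 of these BMDM libraries carried the stromal markers, so no value could be given without such libraries. In the BV2 libraries of that experiment the stromal sum was 15.01 to 22.9 CPM, beside 0.38 to 0.57 CPM in BV2 cells grown alone earlier, and the myeloid sum was 1596 and 1354 CPM with panobinostat, beside 2211 and 2009.7 CPM with DMSO in hypoxia. The part of these markers in the results was not tested.

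In co-cultures, RNA of the partner cells was present. From genes found almost only in GL261 cells, GL261 RNA made up 0.76% ± 0.27 (SD, n = 2) of normoxic and 2.21% ± 0.21 (SD, n = 2) of hypoxic BV2 co-culture libraries. In BMDM co-cultures the share was 2.39% ± 1.22 (SD, n = 3) in normoxia and 3.76% ± 2.39 (SD, n = 3) in hypoxia. It was at most 0.0524% in BV2 cells and BMDM grown alone. BV2 RNA made up 0.77% ± 0.20 (SD, n = 2) of normoxic and 0.23% ± 0.033 (SD, n = 2) of hypoxic GL261 co-culture libraries.

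The labels call the BV2 and GL261 libraries biological replicates and do not say this of each of the others, so a p-value measures the spread between libraries, which may in part be technical. In bulk RNA, fewer cells of a type and less RNA per cell cannot be told apart. Values for single libraries are CPM after trimmed-mean (TMM) scaling within each cell type and table. Changes are log2 fold changes with their standard error (SE) from edgeR's quasi-likelihood test, with p-values adjusted by Benjamini-Hochberg over all genes tested and a threshold of 0.05. Where leaving out a library leaves 1 in its group, that library is assumed to vary like the other groups.

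In normoxia each cell type had its own order of droplet genes. Levels per kilobase of exon (CPM per kb) allow genes to be set beside each other. In BV2 cells grown alone Plin3, a perilipin that also circulates in the cytosol, was highest at 43.7 CPM per kb. Plin2, the perilipin found on droplets of most cells, followed at 21.3 and Pnpla2 at 20.9 CPM per kb, and the ranges of these 2 overlapped. Hilpda stood at 10.1 CPM per kb, Dgat2 at 7.85 and Dgat1 at 7.57, the latter 2 with overlapping ranges. Abhd5 stood at 4.96 and Lipe at 2.22 CPM per kb, Mgll had 1 count in each normoxic BV2 library and G0s2 had none. In GL261 cells Mgll led at 39.7 CPM per kb, followed by Plin3 at 32.7, then by Pnpla2 at 23.7 and Plin2 at 22.4 with overlapping ranges. Hilpda was at 14.4, G0s2 at 12.3 and Dgat1 at 12.1 CPM per kb in GL261 cells, and the G0s2 range overlapped the other 2. Dgat2 was at 3.69, Abhd5 at 2.32 and Lipe at 1.08 CPM per kb there. In BMDM Plin2 was far above the rest at 160.4 CPM per kb, before Pnpla2 at 36.4 and Plin3 at 32.0. Lipe stood at 9.33 CPM per kb in BMDM, Dgat1 at 7.13, Abhd5 at 4.31 and Hilpda at 3.65, and the ranges of neighbours in this order did not overlap. Dgat2 followed at 0.51 CPM per kb, with 29 and 25 counts, and G0s2 at 0.28 and Mgll at 0.072 CPM per kb rested on 2 to 10 counts per library in BMDM. BMDM were scaled in another table than the lines, so levels were not compared with theirs by a test.

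Between normoxic BV2 and GL261 cells 4 of 10 genes were higher and 4 lower in BV2 cells, against 33.8% of all genes tested higher and 39.4% lower. The median gene of this comparison was at -0.12 on the log2 scale. Dgat2 was higher in BV2 cells by 1.21 ± 0.17 (SE) on the log2 scale (edgeR adjusted p = 4.5e-06), Abhd5 by 1.21 ± 0.14 (adjusted p = 2.54e-07 from edgeR), Lipe by 1.16 ± 0.22 (edgeR adjusted p = 0.000126) and Plin3 by 0.54 ± 0.12 (edgeR adjusted p = 0.000593). Dgat1 was lower in BV2 cells (log2 difference -0.56 ± 0.15 SE, edgeR adjusted p = 0.00318), and so was Hilpda (-0.40 ± 0.15, edgeR adjusted p = 0.0221). The Hilpda call did not hold without the first normoxic BV2 library (edgeR adjusted p = 0.157) or the first GL261 one (0.0911). Mgll had 7721 counts over the normoxic GL261 libraries and 2 over the BV2 ones, a ratio of 4632 (95% counting interval 1282 to 38258). G0s2 had no counts in the BV2 monocultures of this first table, so its normoxic level in GL261 cells was at least 80.5-fold higher than there, taking 3 counts per library as the floor. Plin2 and Pnpla2 showed log2 differences of 0.04 ± 0.14 (SE) and -0.07 ± 0.16 and passed no test between the lines.

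**Figure D1:**
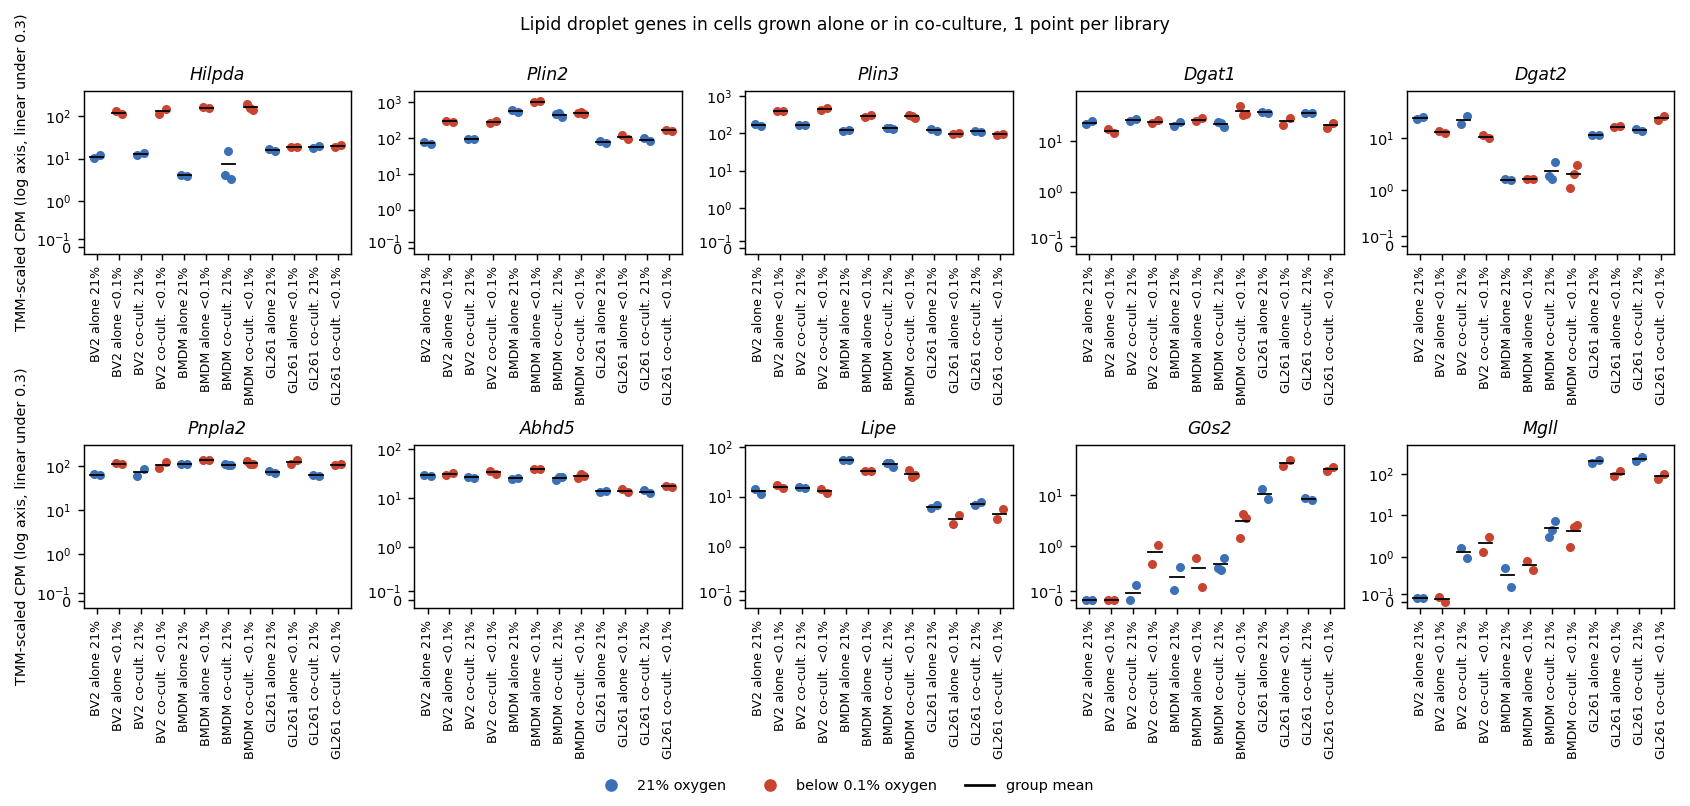
Level of each of the 10 genes in TMM-scaled CPM (vertical, log axis that is linear under 0.3) in BV2 cells, BMDM and GL261 cells grown alone or in co-culture, with 1 point per library, blue at 21% oxygen and red below 0.1%, and a bar at the group mean. Hilpda in BV2 cells and BMDM goes from at most 14.9 CPM in normoxia to at least 108.9 CPM in hypoxia, while in GL261 cells all 8 libraries sit between 15.1 and 20.8 CPM.

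In cells grown alone, hypoxia raised the lipase inhibitor Hilpda and both perilipins in BV2 cells and BMDM, while in GL261 cells it raised the other inhibitor, G0s2, and lowered Mgll. In BV2 cells grown alone 4 of 9 genes tested rose (Hilpda, Plin2, Plin3 and Pnpla2) and 2 fell (Dgat1 and Dgat2), against 30.9% of all genes tested rising and 31% falling. In GL261 cells grown alone 4 of 10 rose (Plin2, Dgat2, Pnpla2 and G0s2) and 4 fell (Plin3, Dgat1, Lipe and Mgll), against 23.2% and 21.4%. In BMDM grown alone 4 of 10 rose (Hilpda, Plin2, Plin3 and Abhd5) and Lipe fell, against 13.3% and 10.6%. Over the genes with more than 3 counts in at least 1 library of each group, the median log2 change was 0.54 for 8 genes in BV2 cells, 0.14 for 10 in GL261 cells and 0.59 for 10 in BMDM. The median of all genes tested was 0, -0.03 and 0.03.

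Among the droplet coats, Plin2 was at 79.8 and 69.5 CPM in normoxic and 303 and 284 CPM in hypoxic BV2 cells grown alone. Both hypoxic libraries lay above both normoxic ones, and Plin2 rose 3.93-fold (log2 1.98 ± 0.12 SE, edgeR adjusted p = 1e-09). In BMDM grown alone Plin2 was at 593 and 534 CPM in normoxia and at 1038 and 1054 CPM in hypoxia, a rise of 0.89 ± 0.16 on the log2 scale (edgeR adjusted p = 0.00324). In GL261 cells the Plin2 values were 82.9 and 74.8 CPM against 124 and 93.7 CPM, a smaller rise of 0.47 ± 0.16 (edgeR adjusted p = 0.0292). The Plin2 call ended in BMDM without the second normoxic library (edgeR adjusted p = 0.0621), and in GL261 cells it ended without either normoxic library or without the first hypoxic one (edgeR adjusted p 0.0618 to 0.18). Plin3 was at 177 and 154 CPM in normoxic BV2 cells and at 406 and 407 CPM in hypoxic ones, and rose 2.46-fold (log2 1.30 ± 0.11 SE, edgeR adjusted p = 6.98e-08). In BMDM it was at 117 and 125 CPM against 272 and 318 CPM, a rise of 2.43-fold (log2 1.28 ± 0.16 SE, edgeR adjusted p = 0.00041). In GL261 cells Plin3 went the other way, from 134 and 114 CPM to 93.9 and 102 CPM. That fall of 0.34 on the log2 scale was just inside the threshold (edgeR adjusted p = 0.0496) and outside it with DESeq2 (adjusted p = 0.0787), with its size factors in edgeR (0.0559), with no filter (0.203) and with only the groups compared (0.122). It was also lost without the first normoxic or either hypoxic library (edgeR adjusted p 0.0604 to 0.292).

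Of the enzymes of triacylglycerol synthesis, Dgat2 was at 22.8 and 25.6 CPM in normoxic and 13.6 and 12.7 CPM in hypoxic BV2 cells grown alone. It fell there by 0.88 on the log2 scale (SE 0.17, edgeR adjusted p = 0.000264). In GL261 cells Dgat2 took the opposite direction, from 11.4 and 11.3 CPM to 16.3 and 16.8 CPM, a rise of 0.54 ± 0.16 (edgeR adjusted p = 0.0175). BMDM held 1.57 to 1.66 CPM of Dgat2 in both conditions. Dgat1 was at 21.7 and 24.6 CPM against 17.4 and 14.8 CPM in BV2 cells and fell by 0.53 on the log2 scale (edgeR adjusted p = 0.00339). In GL261 cells it was at 37.3 and 36.8 CPM against 20.9 and 28.3 CPM and fell by 0.59 on the log2 scale (edgeR adjusted p = 0.0149). In BMDM grown alone Dgat1 passed no test, with 19.7 and 23.8 CPM against 24.6 and 28.0 CPM. The fall of Dgat1 in BV2 cells was lost without the second hypoxic library (edgeR adjusted p = 0.0644), and in GL261 cells the Dgat1 call was lost without any 1 of 3 libraries and the Dgat2 call without either normoxic library.

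Among the lipases, Pnpla2 was at 63.4 and 62.6 CPM in normoxic and 115 and 107 CPM in hypoxic BV2 cells, and rose 1.76-fold (log2 0.82 ± 0.16 SE, edgeR adjusted p = 0.000294). In GL261 cells it was at 74.1 and 69.2 CPM against 109 and 138 CPM, a rise of 1.72-fold (log2 0.78 ± 0.14 SE, edgeR adjusted p = 0.000873). In BMDM its values were 112 and 108 CPM against 136 and 132 CPM, higher in both hypoxic libraries but short of the threshold (log2 0.29 ± 0.15 SE, edgeR adjusted p = 0.189). Its activator Abhd5 was at 25.3 and 26.1 CPM in normoxic and 39.8 and 39.1 CPM in hypoxic BMDM, a rise of 0.62 ± 0.15 (edgeR adjusted p = 0.0152) that was lost without any 1 of the 4 libraries. In BV2 and GL261 cells grown alone the normoxic and hypoxic values of Abhd5 overlapped, at 28.5 to 32.4 CPM and 13.4 to 15.2 CPM. Lipe was at 54.9 and 55.0 CPM in normoxic BMDM and 32.6 and 33.0 CPM in hypoxic ones, and fell by 0.74 on the log2 scale (edgeR adjusted p = 0.013). That call was lost without the first normoxic or either hypoxic library (edgeR adjusted p 0.0525 to 0.0778). In GL261 cells Lipe was at 5.93 and 6.77 CPM against 2.78 and 4.28 CPM, a fall of 0.86 on the log2 scale (edgeR adjusted p = 0.0279), lost without any 1 of 3 libraries. In BV2 cells Lipe was at 14.6 and 11.6 CPM against 16.9 and 14.7 CPM and passed no test. Mgll, which in GL261 cells was among the most abundant of the 10, was at 189 and 215 CPM in normoxia and 87.2 and 116 CPM in hypoxia. It fell by 0.99 on the log2 scale (SE 0.18, edgeR adjusted p = 0.00128). BV2 cells grown alone had 1 count or none of Mgll in each of the 4 libraries and BMDM 3 to 11 counts.

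The inhibitors of adipose triglyceride lipase showed the largest called changes of the 10 genes, Hilpda in BV2 cells and BMDM and G0s2 in GL261 cells. Hilpda was at 10.3 and 11.9 CPM in normoxic and 129 and 109 CPM in hypoxic BV2 cells grown alone, and rose 10.7-fold (log2 3.42 ± 0.15 SE, edgeR adjusted p = 7.29e-11). In BMDM it was at 4.16 and 3.90 CPM against 158 and 153 CPM, and rose 38.4-fold (log2 5.26 ± 0.59 SE, edgeR adjusted p = 0.000253). In GL261 cells Hilpda was at 16.6 and 15.1 CPM in normoxia and at 18.3 and 18.98 CPM in hypoxia, which passed no test (log2 0.23 ± 0.15 SE, edgeR adjusted p = 0.235). G0s2 had the reverse distribution. In GL261 cells it was at 13.2 and 8.32 CPM in normoxia and 37.7 and 49.8 CPM in hypoxia, and rose 4.06-fold (log2 2.02 ± 0.22 SE, edgeR adjusted p = 4.57e-05). In the BV2 monocultures of the same table it had no counts in either oxygen condition, and in BMDM grown alone it had 2 to 8 counts per library with overlapping groups.

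**Figure D2:**
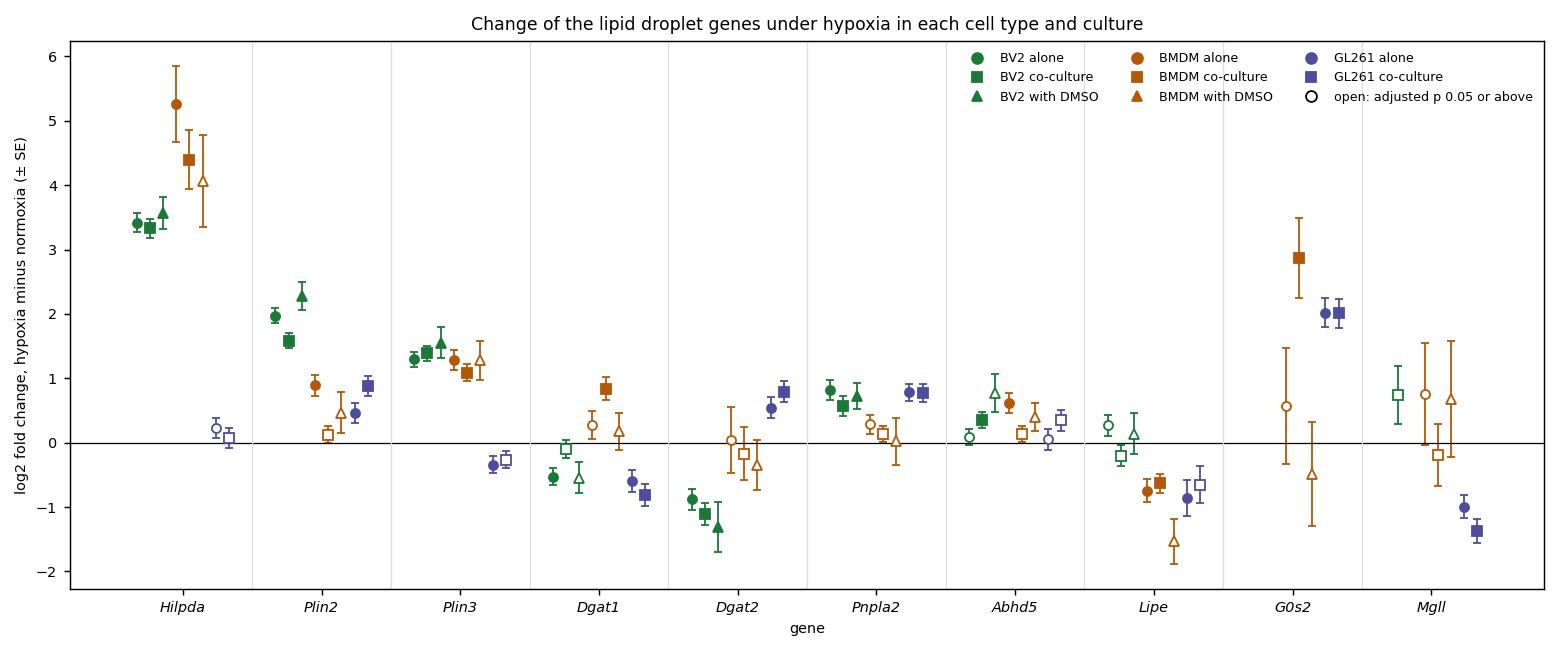
Log2 fold change of hypoxia over normoxia (vertical, ± SE) for each gene (horizontal) in each cell type and culture, with filled symbols where the edgeR adjusted p was under 0.05, and no symbol where a gene was not tested or both groups held 3 counts or fewer per library. Hilpda lies at 3.33 or above in BV2 cells and BMDM and at 0.23 or below in GL261 cells, while G0s2 lies at 2.02 and 2.01 in GL261 cells.

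The difference between BV2 and GL261 cells in their hypoxia response was tested itself. It passed the threshold upward for 4 of 10 genes and downward for 1, against 18.7% of all genes tested in each direction, with the median gene at 0.15 on the log2 scale. The response of Hilpda was larger in BV2 cells by 3.29 ± 0.20 (SE) on the log2 scale (edgeR adjusted p = 3.3e-09), that of Plin3 by 1.74 ± 0.17 (edgeR adjusted p = 4.8e-07) and that of Plin2 by 1.61 ± 0.20 (edgeR adjusted p = 4.8e-06). The response of Dgat2 was lower in BV2 cells (-1.32 ± 0.24 SE, edgeR adjusted p = 0.000277). Lipe differed by 1.24 ± 0.32 (edgeR adjusted p = 0.00495), a call lost without the first hypoxic GL261 library (adjusted p = 0.0534). Dgat1, Pnpla2 and Abhd5 differed by 0.17, 0.13 and 0.13 on the log2 scale, each with an SE of 0.19 to 0.23, and passed no test of the difference. Mgll and G0s2 are among the 10 and did not pass either. With 1 count or none of Mgll and no counts of G0s2 per BV2 library, their responses in BV2 cells could not be estimated. Whether they differ between the lines is therefore left undecided by this test.

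Hypoxia also raised Hilpda and Plin3 in BV2 cells and BMDM grown with GL261 cells. In co-cultured BV2 cells 5 of 9 genes tested rose under hypoxia and 1 fell, against 35.2% and 32.1% of all genes. Hilpda was at 11.8 and 13.3 CPM in normoxia and 112 and 141 CPM in hypoxia, a rise of 3.33 ± 0.15 on the log2 scale (edgeR adjusted p = 1.08e-10). Plin2 rose from 92.2 and 94.6 CPM to 264 and 295 CPM (log2 1.58 ± 0.12 SE, edgeR adjusted p = 8.34e-09), and Plin3 from 167 and 169.5 CPM to 418 and 464 CPM (log2 1.39 ± 0.11 SE, edgeR adjusted p = 2.94e-08). Dgat2 fell from 18.3 and 26.9 CPM to 11.3 and 9.79 CPM (edgeR adjusted p = 3.9e-05). Pnpla2 rose by 0.57 ± 0.16 (edgeR adjusted p = 0.005) and Abhd5 by 0.35 ± 0.12 (edgeR adjusted p = 0.0195). The Pnpla2 call was lost without the first normoxic (edgeR adjusted p = 0.0979) or second hypoxic library (0.196), and the Abhd5 call without the second normoxic (0.128) or first hypoxic one (0.31). With all libraries kept, the Abhd5 call was also lost with no filter (edgeR adjusted p = 0.155) and with only the groups compared (0.0524). Dgat1, at 25.3 and 26.9 CPM against 22.97 and 25.8 CPM, overlapped between the groups. Lipe was at 15.3 and 15.1 CPM against 14.6 and 11.9 CPM (edgeR adjusted p = 0.289) and Mgll at 24 and 18 counts against 23 and 52 (edgeR adjusted p = 0.156), and neither passed. G0s2, not tested here, had 0 and 3 counts in normoxia and 8 and 18 in hypoxia.

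In co-cultured GL261 cells 4 of 10 rose and 2 fell, against 26.8% and 25.6% of all genes. Plin2 was at 97.96 and 82.3 CPM in normoxia and 171 and 159.7 CPM in hypoxia, a rise of 0.88 ± 0.16 on the log2 scale (edgeR adjusted p = 0.000681). G0s2 rose from 8.76 and 7.97 CPM to 30.8 and 36.6 CPM (log2 2.01 ± 0.23 SE, edgeR adjusted p = 3.26e-05). Dgat2 rose by 0.79 ± 0.16 (edgeR adjusted p = 0.00157) and Pnpla2 by 0.77 ± 0.14 (edgeR adjusted p = 0.000714). Mgll fell from 205 and 253 CPM to 76.1 and 102 CPM (edgeR adjusted p = 0.00011), and Dgat1 from 35.8 and 36.4 CPM to 18.1 and 23.04 CPM (edgeR adjusted p = 0.00228). Hilpda stayed within 17.98 to 20.8 CPM in all 4 libraries, with overlapping groups (log2 0.07 ± 0.15 SE, edgeR adjusted p = 0.727). Plin3, Abhd5 and Lipe changed by -0.27, 0.35 and -0.65 on the log2 scale and missed the threshold (edgeR adjusted p 0.0723 to 0.106).

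In co-cultured BMDM 4 of 10 rose and Lipe fell, against 17.5% and 17.3% of all genes. Hilpda was at 4.20, 14.9 and 3.27 CPM in normoxia and 195, 149 and 135 CPM in hypoxia, a rise of 4.40 ± 0.46 on the log2 scale (edgeR adjusted p = 7.95e-05). The second normoxic library stood above the other 2, and all hypoxic libraries lay far above it. The same library had a granulocyte marker sum of 19.4 CPM, beside 0.26 and 0.91 CPM in the other 2, and the part of these markers in its Hilpda level was not tested. Without it the log2 change of Hilpda was 5.39 (edgeR adjusted p = 2.41e-06). Plin3 rose from 137, 138 and 134 CPM to 316, 297 and 255 CPM (log2 1.09 ± 0.13 SE, edgeR adjusted p = 0.000154). Dgat1 rose from 23.4, 23.3 and 18.9 CPM to 49.8, 33.2 and 34.5 CPM (log2 0.84 ± 0.18 SE, edgeR adjusted p = 0.00428). Lipe fell from 48.0, 47.1 and 39.0 CPM to 34.8, 24.4 and 27.6 CPM (edgeR adjusted p = 0.00682). Plin2, the most abundant of the 10 per kilobase in BMDM, was at 481, 490.0 and 391 CPM in normoxia and 494, 520.3 and 466 CPM in hypoxia. These groups overlapped and passed no test (log2 0.12 ± 0.13 SE, edgeR adjusted p = 0.508). G0s2 rose from 6, 5 and 6 raw counts to 14, 57 and 42, which is 0.33 to 0.58 CPM against 1.40 to 4.24 CPM (log2 2.87 ± 0.62 SE, edgeR adjusted p = 0.0045). Pnpla2, Abhd5, Dgat2 and Mgll changed by 0.14, 0.13, -0.17 and -0.19 on the log2 scale with overlapping groups, and passed no test.

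Co-culture was compared with growth alone at each oxygen level. Hypoxic or normoxic monocultures are the controls of both the co-culture and the hypoxia comparisons, so these share libraries. In normoxic BV2 cells 1 of 9 genes rose with co-culture and none fell, against 5.77% and 9.14% of all genes, and in hypoxic BV2 cells 2 rose and none fell, against 8.13% and 7.57%. In hypoxic BV2 cells Dgat1 was at 17.4 and 14.8 CPM alone and 22.97 and 25.8 CPM in co-culture, a rise of 0.60 ± 0.14 on the log2 scale (edgeR adjusted p = 0.00687). It was lost without the second monoculture (adjusted p = 0.123) or the second co-culture library (adjusted p = 0.0854 from edgeR). Plin2 in normoxia, at 79.8 and 69.5 CPM alone and 92.2 and 94.6 CPM in co-culture, missed the threshold (log2 0.32 ± 0.11 SE, edgeR adjusted p = 0.0703), and DESeq2 put it inside (adjusted p = 0.0473). Mgll rose in both oxygen conditions, from 2 counts over the 2 normoxic libraries alone to 42 in co-culture (ratio 29.1, 95% counting interval 7.56 to 248; edgeR adjusted p = 0.00203). In hypoxia it went from 1 count to 75 (ratio 75.1, 95% counting interval 13.1 to 3006; edgeR adjusted p = 0.000171). Its fitted log2 change of 5.94 was 4.97 without the second monoculture library and 5.14 without the second co-culture library. It was 8.30 without the first monoculture library, when the other one had no counts and the value depended on the prior count of the fit.

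In BMDM Mgll also rose with co-culture, the only 1 of 10 to pass in normoxia, against 1.57% of all genes higher and 0.0675% lower. In hypoxia 2 rose and 1 fell, against 4.06% and 3.05% of all genes. Plin2 was at 1038 and 1054 CPM in hypoxic BMDM alone and at 494, 520.3 and 466 CPM in hypoxic co-culture, a fall of 1.08 on the log2 scale (SE 0.14, edgeR adjusted p = 0.00513). All 3 co-culture libraries lay below both monoculture libraries, and the call was lost when either monoculture library was left out (edgeR adjusted p 0.0606 and 0.0817). In normoxia Plin2 was at 593 and 534 CPM alone and 481, 490.0 and 391 CPM in co-culture (log2 -0.31 ± 0.15 SE, edgeR adjusted p = 0.405). Mgll went from 10 and 3 counts alone to 49, 69 and 76 in normoxic co-culture, a ratio of 12.2 (95% counting interval 6.98 to 23.4; edgeR adjusted p = 0.0258). In hypoxia it went from 11 and 7 counts to 17, 71 and 69 (ratio 6.99, 95% counting interval 4.28 to 12.1; edgeR adjusted p = 0.0331), and G0s2 from 8 and 2 to 14, 57 and 42 (ratio 9.06, 95% counting interval 4.75 to 19.4; edgeR adjusted p = 0.0327). Each of these 3 calls was lost when either monoculture library, the second co-culture library or the third was left out (edgeR adjusted p 0.0613 to 0.277).

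Counts in co-culture were set beside the counts that the GL261 share of each library would bring. In normoxic BV2 co-culture 24 and 18 counts of Mgll were seen, beside 27.1 and 21.7 expected. Expected counts were taken from the GL261 share and the gene's level in GL261 cells grown alone at the same oxygen level. In hypoxic BV2 co-culture 23 and 52 counts stood beside 39.1 and 42.7. In BMDM co-culture the counts were 49, 69 and 76 beside 40.8, 67.0 and 76.6 in normoxia, and 17, 71 and 69 beside 17.8, 48.1 and 75.6 in hypoxia. For G0s2 the hypoxic BV2 counts were 8 and 18 beside 16.9 and 18.4 expected, and the hypoxic BMDM counts 14, 57 and 42 beside 7.67, 20.8 and 32.6. The expected counts of Hilpda, Plin2 and Dgat1 were at most 0.354%, 0.895% and 2.35% of those seen in hypoxic BV2 co-culture, and at most 0.865%, 1.46% and 4.50% in hypoxic BMDM co-culture. The part of GL261 RNA in the co-culture calls was not tested.

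**Figure D3:**
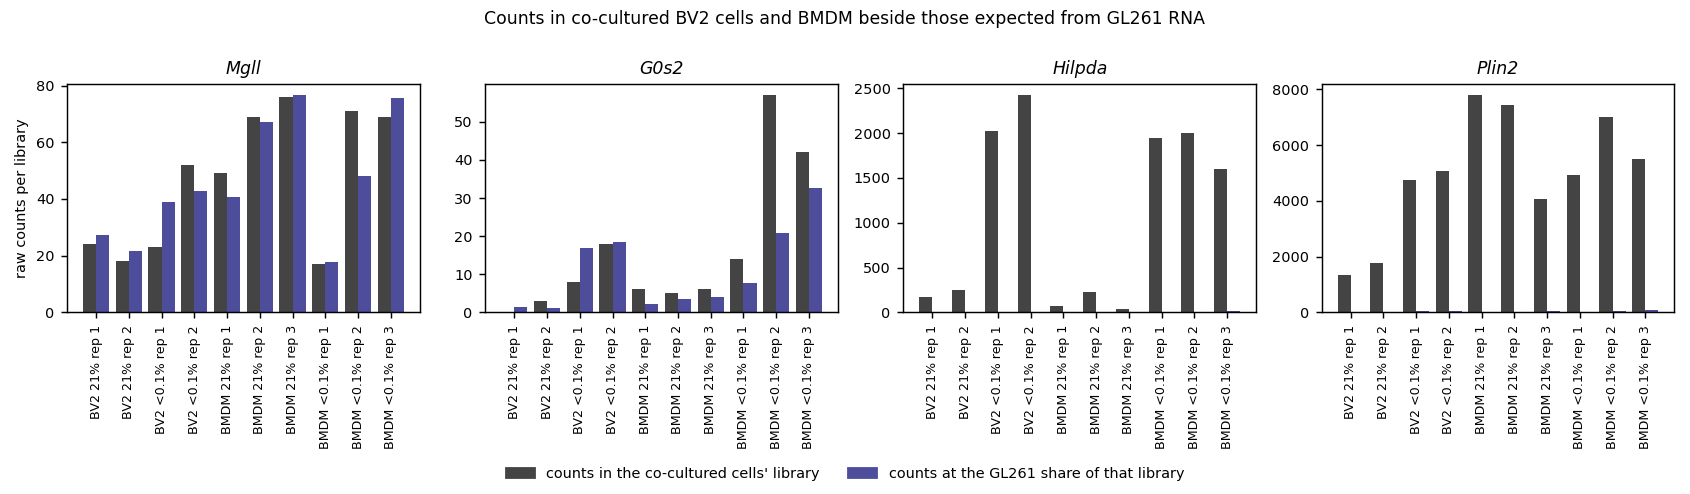
Raw counts of Mgll, G0s2, Hilpda and Plin2 (vertical, a scale for each gene) in each co-cultured BV2 and BMDM library (dark bars) beside the counts that the GL261 share of that library would bring (blue bars). For Mgll the bars stand side by side at 17 to 76 counts seen, while for Hilpda in hypoxia 1597 to 2423 counts stand beside at most 13.8.

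In GL261 cells co-culture changed none of the 10 genes by edgeR, in normoxia or in hypoxia, against 0.514% and 1.39% of all genes called in either direction. At an unadjusted p under 0.05 there were 0 in normoxia and 2 in hypoxia, Plin2 and Dgat2, and DESeq2 called 0 and 1. With a replicate block Plin2 passed in hypoxia (edgeR adjusted p = 0.0127). Plin2 was at 124 and 93.7 CPM in hypoxic GL261 cells alone and 171 and 159.7 CPM in co-culture (log2 0.60 ± 0.15 SE, edgeR adjusted p = 0.0913, DESeq2 adjusted p = 0.0156). Dgat2 was at 16.3 and 16.8 CPM alone and 22.1 and 26.5 CPM in co-culture (log2 0.55 ± 0.16 SE, edgeR adjusted p = 0.128).

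Whether the hypoxia response itself differed between co-culture and monoculture was tested in each cell type. Tested were 9 genes in BV2 cells, without G0s2, and all 10 in GL261 cells and BMDM. None of them passed, against 2.19%, 0% and 0% of all genes called in either direction. At an unadjusted p under 0.05 there were 2 in BV2 cells (Plin2 and Dgat1), 0 in GL261 cells and 2 in BMDM (Plin2 and Abhd5), and DESeq2 called 0 in each. Over all genes, 1354 in GL261 cells and 636 in BMDM stood at an unadjusted p under 0.05, and DESeq2 called 47 and 4. The smallest p of the 10 genes was for Plin2 in BMDM, whose hypoxia response was lower in co-culture by a log2 difference of -0.77 ± 0.21 (SE, edgeR adjusted p = 1).

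Hypoxia with DMSO was measured again in BV2 cells and BMDM of the panobinostat experiment. In BV2 cells, of 8 genes tested 4 rose (Hilpda, Plin2, Plin3 and Pnpla2) and Dgat2 fell, against 17.2% and 20.2% of all genes. Hilpda was at 9.002 and 6.19 CPM in normoxia and 86.9 and 93.2 CPM in hypoxia (log2 3.57 ± 0.25 SE, edgeR adjusted p = 4.16e-05). Plin2 was at 69.9 and 62.5 CPM against 346 and 298 CPM (log2 2.28 ± 0.21 SE, edgeR adjusted p = 0.00013). Plin3 was at 233 and 188 CPM against 699 and 538 CPM (log2 1.56 ± 0.24 SE, edgeR adjusted p = 0.00111). Pnpla2 was at 81.0 and 95.1 CPM against 149.9 and 141 CPM (edgeR adjusted p = 0.0159), and Dgat2 at 22.8 and 40.8 CPM against 8.24 and 17.5 CPM (edgeR adjusted p = 0.0247). The calls of Pnpla2 and Dgat2 were lost without the first hypoxic library (edgeR adjusted p 0.0963 and 0.113), and that of Dgat2 also without the second normoxic one (0.2). Without the second hypoxic library the log2 change of Dgat2 was -1.95. Abhd5 was at 28.0 and 27.1 CPM against 59.4 and 34.7 CPM (edgeR adjusted p = 0.0679, DESeq2 adjusted p = 0.047), Dgat1 at 37.7 and 28.4 CPM against 22.3 and 23.1 CPM (edgeR adjusted p = 0.104), and Lipe overlapped between the groups. G0s2 and Mgll were not tested here, with 3 to 11 and 1 to 4 counts per library in the DMSO groups.

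In BMDM with DMSO none of the 10 genes passed edgeR's threshold under hypoxia, against 0.483% of all genes in either direction. At an unadjusted p under 0.05 there were 3, Hilpda, Plin3 and Lipe, and DESeq2 called 3. With a replicate block these genes passed (edgeR adjusted p = 0.0127, 0.039 and 0.0382). Hilpda was at 8.62 and 5.66 CPM in normoxia and at 177 and 61.4 CPM in hypoxia (log2 4.06 ± 0.71 SE, edgeR adjusted p = 0.0725, DESeq2 adjusted p = 2.48e-07). Both hypoxic libraries lay well above both normoxic ones, but they differed from each other more than any other pair of replicates shown for this gene in hypoxia. The hypoxic library with 177 CPM had a stromal sum of 2673 CPM and the one with 61.4 CPM a sum of 13839 CPM. Plin3 was at 79.3 and 96.9 CPM against 255 and 173 CPM (log2 1.28 ± 0.30 SE, edgeR adjusted p = 0.0886, DESeq2 adjusted p = 0.0113). Lipe was at 41.0 and 30.5 CPM against 11.6 and 13.1 CPM (log2 -1.53 ± 0.34 SE, edgeR adjusted p = 0.0847, DESeq2 adjusted p = 0.0043). Stromal and myeloid marker sums moved with the groups here, and their part in these values was not tested. Plin2 was at 378 and 468 CPM against 474 and 695 CPM and Abhd5 at 26.8 and 30.6 CPM against 37.1 and 39.0 CPM, higher in both hypoxic libraries without passing (edgeR adjusted p = 0.383 and 0.288). Dgat1, Dgat2, Pnpla2, G0s2 and Mgll changed by 0.18, -0.34, 0.02, -0.49 and 0.68 on the log2 scale with edgeR adjusted p of 0.595 or more.

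Panobinostat in hypoxia moved none of the 10 genes past edgeR's threshold, in BV2 cells (8 tested) or in BMDM (10 tested), against 14.6% and 0% of all genes in either direction. At an unadjusted p under 0.05 there were 3 in BV2 cells (Hilpda, Plin3 and Dgat2) and 3 in BMDM (Plin2, Plin3 and Dgat2), and DESeq2 called 1 and 2. With a replicate block, Dgat2 (edgeR adjusted p = 0.000853) and Plin3 (0.0245) passed in BV2 cells, and Dgat2 (0.0311) and Plin2 (0.0425) in BMDM. Over all genes in BMDM, 3868 of 14914 stood at an unadjusted p under 0.05 and DESeq2 called 2023. Dgat2 was at 8.24 and 17.5 CPM with DMSO and 20.5 and 29.3 CPM with panobinostat in BV2 cells (log2 0.95 ± 0.39 SE, edgeR adjusted p = 0.124). In BMDM it was at 4.14 and 4.87 CPM with DMSO and 19.1 and 13.9 CPM with panobinostat (log2 1.88 ± 0.39 SE, edgeR adjusted p = 0.0689, DESeq2 adjusted p = 0.00165). Plin3 was at 699 and 538 CPM against 410.2 and 377 CPM in BV2 cells (log2 -0.65 ± 0.23 SE, edgeR adjusted p = 0.0869, DESeq2 adjusted p = 0.0393), and at 255 and 173 CPM against 126 and 97.5 CPM in BMDM (log2 -0.94 ± 0.30 SE, edgeR adjusted p = 0.124). Plin2 was at 474 and 695 CPM against 246 and 302 CPM in BMDM (log2 -1.09 ± 0.32 SE, edgeR adjusted p = 0.108, DESeq2 adjusted p = 0.0234). Its groups did not overlap in BV2 cells either, at 346 and 298 CPM against 244 and 277 CPM (log2 -0.30 ± 0.20 SE, edgeR adjusted p = 0.342). Hilpda, at 86.9 and 93.2 CPM against 118 and 133 CPM in BV2 cells, was higher in both treated libraries without passing (log2 0.48 ± 0.22 SE, edgeR adjusted p = 0.157). In BMDM its groups overlapped, at 177 and 61.4 CPM against 129.6 and 51.6 CPM. The other genes tested, Dgat1, Pnpla2, Abhd5 and Lipe in both cell types, Plin2 in BV2 cells and G0s2 and Mgll in BMDM, had an edgeR adjusted p of 0.342 or more. The myeloid marker sum of the BMDM libraries was lower with panobinostat than with DMSO in hypoxia (611.3 and 1739 against 2300 and 3736 CPM), and its part in these values was not tested.

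**Figure D4:**
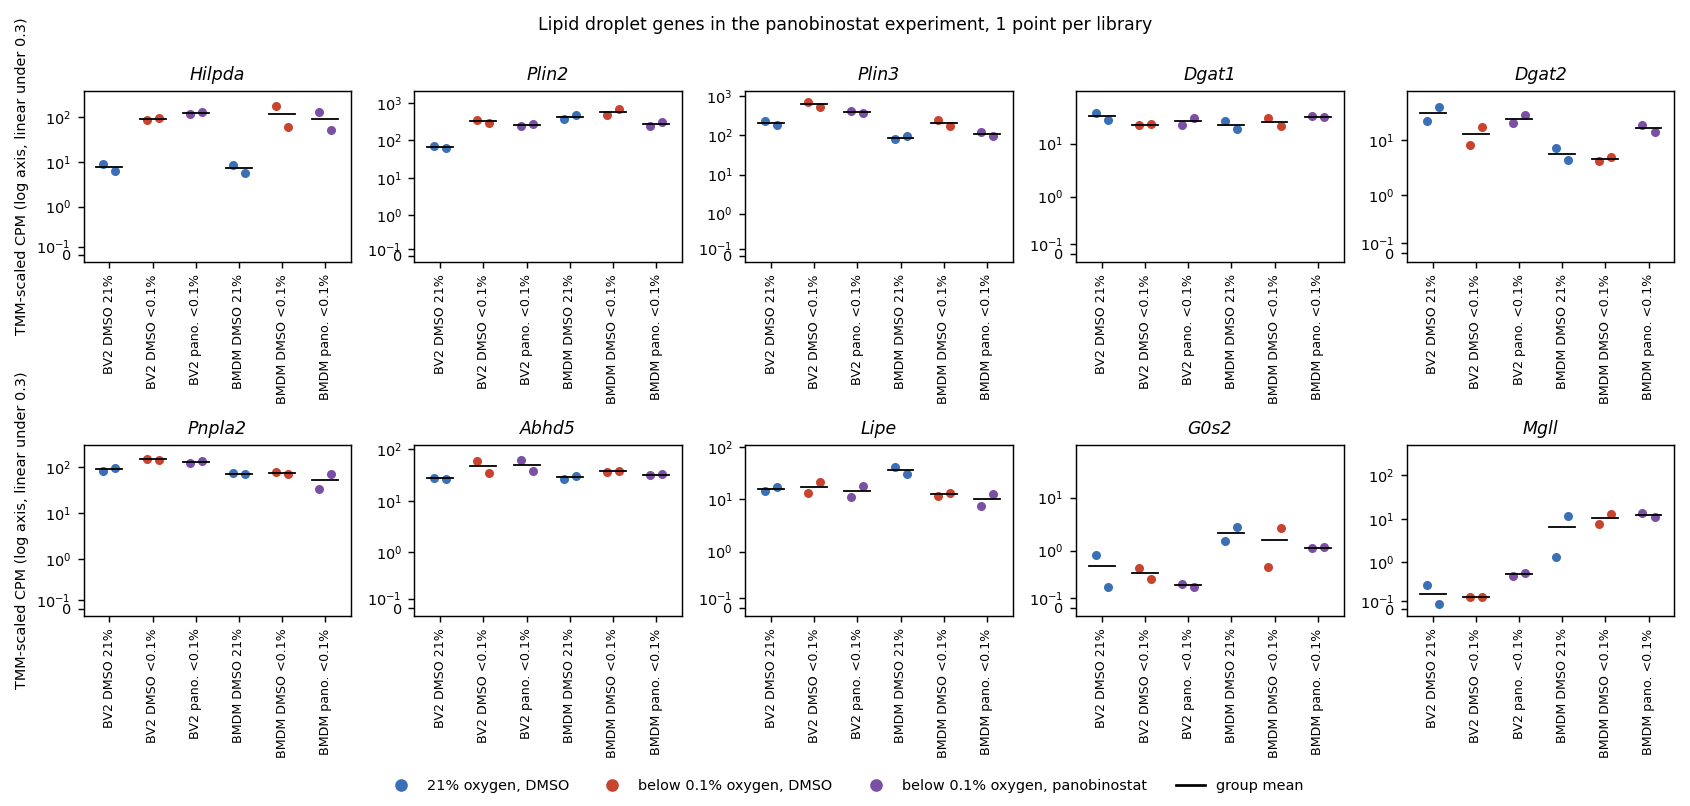
Level of each of the 10 genes in TMM-scaled CPM (vertical, log axis that is linear under 0.3) in BV2 cells and BMDM with DMSO at 21% oxygen (blue), DMSO below 0.1% (red) or 10 nM panobinostat below 0.1% (purple), with 1 point per library and a bar at the group mean. Hilpda stays at 118 CPM or above with panobinostat in BV2 cells, and Dgat2 is at 13.9 CPM or above with panobinostat in BMDM against at most 4.87 CPM with DMSO in hypoxia.

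The response to hypoxia with DMSO and the response to panobinostat were each compared between BV2 cells and BMDM. None of the 10 genes passed edgeR's threshold for either difference, against 0.664% and 0.0251% of all genes in either direction. At an unadjusted p under 0.05 there were 2 for hypoxia, Plin2 and Lipe, and 0 for panobinostat, and DESeq2 called 2 and 0. With a replicate block Plin2 (edgeR adjusted p = 0.00995) and Lipe (0.0358) passed for hypoxia. The hypoxia response of Plin2 was larger in BV2 cells by 1.89 ± 0.36 (SE) on the log2 scale (edgeR adjusted p = 0.0511, DESeq2 adjusted p = 0.000125). In normoxia with DMSO 2 of the 10 genes were higher in BV2 cells than in BMDM and 4 lower, against 17.1% and 27.1% of all genes, with the median gene at -0.11. Dgat2 was higher in BV2 cells by 2.29 ± 0.44 (SE) on the log2 scale (edgeR adjusted p = 0.00238) and Plin3 by 1.08 ± 0.28 (edgeR adjusted p = 0.0119). Plin2 was lower in BV2 cells (log2 difference -2.86 ± 0.27 SE, edgeR adjusted p = 3.41e-05), and so was Lipe (-1.35 ± 0.35, edgeR adjusted p = 0.0117). Mgll had 5 counts over the BV2 libraries and 202 over the BMDM ones (ratio 38.0, 95% counting interval 16.0 to 118; edgeR adjusted p = 0.00269), of which the first stood at 1.31 and the second at 11.6 CPM. Its fitted log2 difference of -5.28 was -2.96 without the second BMDM library and -6.51 without the first BV2 one. G0s2 was at 0.82 and 0.21 CPM in BV2 cells against 1.53 and 2.77 CPM in BMDM (edgeR adjusted p = 0.0481). The G0s2 call was lost with DESeq2 (adjusted p = 0.0701) and without either BMDM library or the second BV2 one (edgeR adjusted p 0.0628 to 0.26), and its log2 difference of -2.24 was -3.47 without the first BV2 one (edgeR adjusted p = 0.0464). Without the first BMDM library the calls of Plin3 and Lipe were lost (edgeR adjusted p = 0.0903 and 0.0686), as they were without the first BV2 library (0.0573 and 0.0801), and that of Lipe also without the second BV2 library (0.051). Hilpda, Dgat1, Pnpla2 and Abhd5 passed no test here. These BMDM libraries had stromal sums of 23237 and 20453 CPM, and their part in the differences was not tested.

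Other lipid genes were followed in 6 lists. In each of the 3 cell types grown alone, hypoxia raised Gpat3, Lpin1 and Soat2 of glycerolipid and sterol ester synthesis at least 2-fold and lowered Acaca and Elovl6 of fatty acid synthesis at least 2-fold. Over all genes tested, 30.9% rose and 31% fell in BV2 cells, 23.2% and 21.4% in GL261 cells, and 13.3% and 10.6% in BMDM. These shares count calls by adjusted p alone and belong beside the hypoxia counts of all 6 lists. The share of all genes changed at least 2-fold in all 3 cell types is not given here. Of the genes of acyl-CoA and glycerolipid synthesis 7 rose and 6 fell of 17 tested in BV2 cells, 6 rose and 5 fell of 18 in GL261 cells, and 7 rose and 1 fell of 17 in BMDM. Their median log2 change was 0.03, 0.04 and 0.52, beside 0, -0.03 and 0.03 for all genes. Gpat3, which adds the first fatty acid to glycerol phosphate, went from 5.58 ± 0.28 to 33.1 ± 1.38 CPM (mean ± SD, n = 2) in BV2 cells and rose by 2.57 on the log2 scale there, by 2.23 in GL261 cells and by 4.49 in BMDM. Lpin1, whose product makes diacylglycerol for the DGAT enzymes, rose by 2.65, 1.49 and 1.18, and Soat2, which esterifies cholesterol, by 3.07, 2.76 and 3.53. Acsl5, an acyl-CoA synthetase, fell most of this list in each cell type, by 1.17, 1.59 and 0.59 on the log2 scale.

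Of the 13 fatty acid synthesis genes, all tested, 3 rose and 6 fell in BV2 cells, 3 rose and 8 fell in GL261 cells and 2 rose and 5 fell in BMDM, with median log2 changes of -0.35, -0.59 and -0.75. Acaca, the enzyme that makes malonyl-CoA, fell by 1.52, 1.22 and 1.38 on the log2 scale in the 3 cell types. Elovl6, which lengthens fatty acids, fell by 2.40 on the log2 scale in BV2 cells, from 98.1 ± 14.6 to 18.6 ± 0.50 CPM (mean ± SD, n = 2). It fell from 134 to 29.9 CPM in GL261 cells and by 1.95 on the log2 scale in BMDM. Fads2, a desaturase, fell by 2.15 in BMDM, where Scd2, another desaturase, rose by 2.05. Me1, which supplies NADPH, rose by 1.33 in BV2 and 1.03 in GL261 cells. For these genes and those of the list before, the edgeR adjusted p-values of the changes given ranged up to 0.0306, that of Acsl5 in BMDM.

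Of the fatty acid oxidation genes 5 rose and 2 fell of 16 tested in BV2 cells, 1 rose and 6 fell of 17 in GL261 cells, and 0 of 16 passed in BMDM by edgeR or DESeq2 (2 at an unadjusted p under 0.05). Ppargc1a, a coactivator of mitochondrial genes, rose by 1.19 in BV2 cells, where the electron carrier Etfb fell by 0.81. Hadh, of mitochondrial oxidation, fell by 0.35 in BV2 and 1.62 in GL261 cells. Of the other droplet coat and assembly genes 3 rose and 2 fell of 6 tested in BV2 cells, 2 rose and 1 fell of 8 in GL261 cells, and 1 rose of 6 in BMDM. Fitm2, which aids droplet budding, fell by 1.09 in BV2 cells and rose by 0.96 in GL261 cells, and Hsd17b11 rose by 0.66 and fell by 0.87 on the log2 scale in the same cells. Rab18 rose by 1.10 in BMDM. Of the uptake and binding genes 2 rose and 2 fell of 9 in BV2 cells, 2 rose and 1 fell of 8 in GL261 cells and 3 rose and 1 fell of 11 in BMDM. The lipoprotein receptor Vldlr rose by 2.51 in BMDM, Slc27a1 by 1.24 in BV2 cells and the binding protein Fabp3 by 2.05 in GL261 cells, where Fabp5 fell by 1.28. Lipoprotein lipase (Lpl) fell by 0.47 in BV2 cells and the binding protein Fabp7 by 1.81 in BMDM. Of the other hydrolases 3 rose and 2 fell of 8 in BV2 cells, 1 rose and 4 fell of 8 in GL261 cells and 1 fell of 8 in BMDM. Daglb, a diacylglycerol lipase, fell in all 3, by 0.84, 1.12 and 1.23 on the log2 scale, while Pnpla6 rose by 1.20 in BV2 cells and Nceh1, a cholesteryl ester hydrolase, by 0.90 in GL261 cells.

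**Figure D5:**
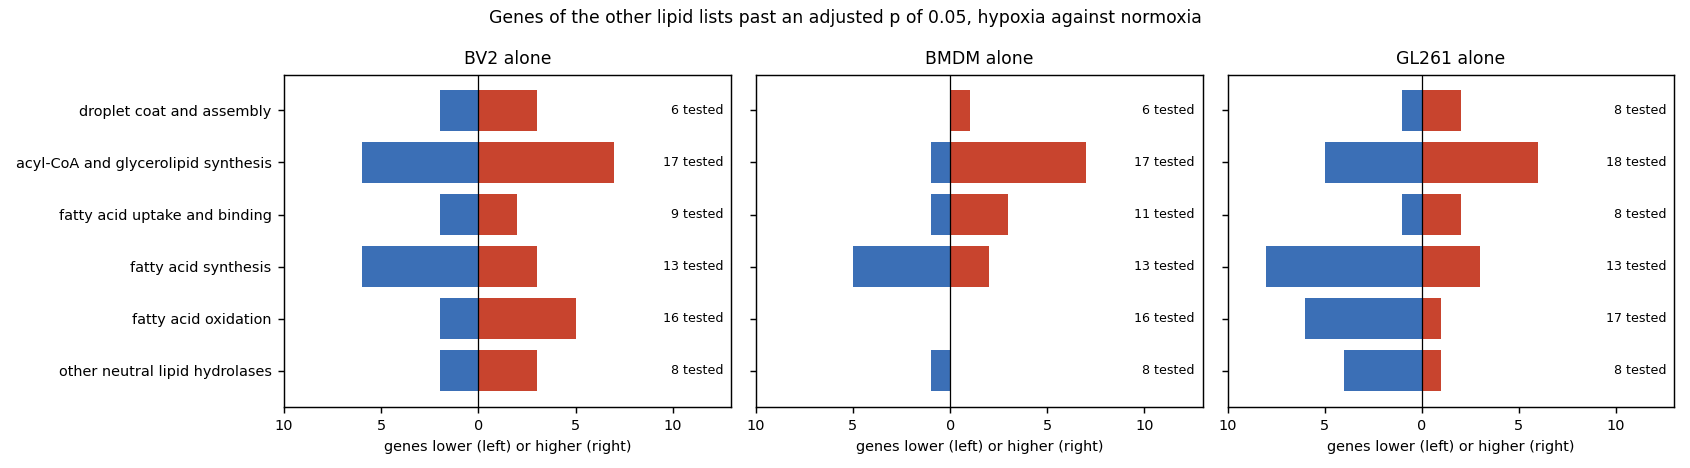
Number of genes past an edgeR adjusted p of 0.05 under hypoxia in cells grown alone, lower to the left in blue and higher to the right in red, for 6 lists of other lipid genes in BV2 cells, BMDM and GL261 cells, with the number tested at the right. Fatty acid synthesis leans to the lower side with 6, 5 and 8 genes, and glycerolipid synthesis in BMDM to the higher side with 7 genes against 1. Over all genes tested, 31% were lower and 30.9% higher in BV2 cells, 10.6% and 13.3% in BMDM, and 21.4% and 23.2% in GL261 cells.

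With panobinostat in hypoxic BV2 cells, Cd36, a fatty acid receptor, rose from 2.95 ± 0.052 to 36.8 ± 3.90 CPM (mean ± SD, n = 2; log2 3.64 ± 0.29 SE, edgeR adjusted p = 0.000448). Fasn, fatty acid synthase, fell by 2.25 on the log2 scale (edgeR adjusted p = 0.00196) and Slc27a1, a fatty acid transporter, by 1.75 (edgeR adjusted p = 0.00966). Agpat2 fell by 0.91 and Pnpla7 by 1.55, while Acadl rose by 0.84 and Abhd6 by 1.08. Over all genes tested 14.6% were called in either direction with panobinostat in BV2 cells. Over the lists 0 coat genes of 7 passed by edgeR or DESeq2 (1 at an unadjusted p under 0.05), 1 of 17 glycerolipid genes fell, 1 of 8 uptake genes rose and 2 fell, and 2 of 12 synthesis genes fell. Of 15 oxidation genes 3 rose, and of 8 hydrolases 1 rose and 2 fell. In BMDM 0 genes of any list passed with panobinostat by edgeR, with 2 to 9 per list at an unadjusted p under 0.05 and 0 to 6 per list called by DESeq2. Cd36 was at 156 ± 12.8 CPM with DMSO and 58.9 ± 19.2 CPM with panobinostat there (SD, n = 2; log2 -1.41 ± 0.39 SE, edgeR adjusted p = 0.0978).

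Over the 18 groups, with means centred within each cell type and table, the genes closest to Hilpda in log2(CPM + 1) were Kif3a (Pearson's r 0.986), Bsg (0.983), Gm49774 (0.975), 4930458D05Rik (0.975) and Sccpdh (0.974), of 11266 genes tested in every fit. Closest to Plin2 were Cast (0.951), Gm6560 (0.949), Pkm (0.948), Creg2 (0.948) and Plekhb2 (0.944). The points share libraries, depth and the contrast of oxygen levels, so these values are a description.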

How the data were processed

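Polyadenylated RNA from 38 libraries was sequenced, and the values deposited are whole read counts per Ensembl gene in 3 tables. Per the submitters' processing notes these used mm10, Trimmomatic 0.36, STAR 2.6, SAMtools, HTSeq 0.9.1 and deepTools, with Picard 2.17.1 for the BV2 and GL261 table only; the strand setting is not given in the sources used here. Symbols came from GENCODE vM21, for 55141 of the 55487 identifiers. The members and the lists of other lipid genes were chosen with earlier results of these data known.

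From the counts, edgeR 4.0.16 (R 4.3.3, limma 3.58.1) was run per cell type and table, and over both cell types of a table for differences between them. TMM scaling, filterByExpr (10 counts, 15 in total), a quasi-likelihood F test and Benjamini-Hochberg adjustment over all genes were used, after a test on simulated data. SE is the log2 fold change divided by the root of F. DESeq2 1.42.0, its size factors, no filter, a replicate block, only the groups compared and each library left out were the alternatives. All 10 members were named, with the lipid genes changed at least 2-fold the same way in all 3 monocultures, and those with the largest called change in each direction of each list in the monoculture hypoxia or panobinostat comparisons. Of these, 1 gene is not reported here.

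Each table column was mapped to 1 sample (0 were left unmapped). All 22 pairs of replicates differed by more than sampling noise (chi-square per degree of freedom 6.70 to 156, genes with 20 counts or more). A floor of 3 counts corresponds to 0.110 to 0.311 CPM, and it and the 95% exact intervals of count ratios cover counting error only. The expected partner counts came from genes at 20 CPM or more in one cell type grown alone and at least 100 times lower in the other. Replicate numbers are shared across groups, and no label says that they mark a shared culture or day. In the hypoxia comparison of co-cultured BMDM the deviations of all 3 same-numbered pairs correlated (r 0.26 to 0.53). The values given for that comparison come from the fit without a block, and blocking changed no member's call there.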

Additional observations from a re-analysis of the deposited data

Results flagged for a closer look

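The response to hypoxia of cells grown alone differed between BV2 and GL261 cells for 5 of the 10 genes by a test of the difference itself in edgeR. G0s2 and Mgll had too few counts in BV2 cells for this difference to be estimated. On the log2 scale, BV2 minus GL261, the difference was 3.29 for Hilpda, 1.61 for Plin2, 1.74 for Plin3, -1.32 for Dgat2 and 1.24 for Lipe. Dgat2 fell in BV2 and rose in GL261 cells, and Plin3 rose in BV2 and fell in GL261 cells. The GL261 rise of Dgat2 was lost without either normoxic library, and the GL261 fall of Plin3 without any 1 of 3 libraries and with DESeq2.

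Other differences were flagged because the hypoxic libraries lay all above the normoxic ones in one cell type and all below them in the other. These were not tested, since BMDM were in another table than the lines. The hypoxia change of BMDM minus that of GL261 cells was 1.62 for Plin3 and 0.87 for Dgat1. That of BMDM minus BV2 cells was 0.80 for Dgat1, 0.92 for Dgat2 and -1.01 for Lipe. Of these, the BMDM changes of Dgat1 and Dgat2 and the BV2 change of Lipe did not pass edgeR's threshold. That of Dgat2 in BMDM was 0.04 ± 0.51 (SE) on the log2 scale, at 1.57 to 1.66 CPM, so its order rests on nearly equal values.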

How the results depend on the processing

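Of 2342 recomputed values of the 10 genes, 2225 kept their side of the threshold, 73 calls were lost and 44 were gained. No called value changed direction, and of 1661 values that were not called 122 changed sign. Where leaving out a library left 1 in its group, its spread was assumed to be that of the other groups. Depth limits G0s2 and Mgll most in BV2 cells and BMDM grown alone in the first 2 experiments, with 0 to 11 counts per library. The same holds for BV2 cells of the panobinostat experiment, with 3 to 11 counts of G0s2 and 1 to 8 of Mgll. The cause of the changes below was not tested.

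Counts of called genes among the 10 moved as follows. Co-culture in normoxic BV2 cells had 1, and 2 with DESeq2 or with only the groups compared. Co-culture in hypoxic BV2 cells had 2, and 1 to 3 with a library left out. Hypoxia in GL261 cells grown alone had 8, 5 with only the groups compared, and 3 to 7 with a library left out. Co-culture in hypoxic GL261 cells had 0, and 1 with DESeq2 or no filter and 0 to 1 with a library left out. Hypoxia in BMDM grown alone had 5, and 3 with any library left out. Co-culture in normoxic BMDM had 1, 2 with no filter, and 0 to 1 with a library left out. Co-culture in hypoxic BMDM had 3, 1 with only the groups compared, and 0 to 3 with a library left out. Hypoxia in BV2 cells with DMSO had 5, and 3 to 6 with a library left out. Panobinostat in BV2 cells had 0, and 1 with DESeq2, no filter or only the groups compared, and 0 to 1 with a library left out. Hypoxia in BMDM with DMSO had 0, 3 with DESeq2 or no filter, and 0 to 1 with a library left out. Panobinostat in BMDM had 0, 2 with DESeq2 and 1 with no filter. BV2 cells against BMDM in normoxia had 6, and 3 to 5 with a library left out. The difference of their hypoxia responses had 0, 2 with DESeq2 or no filter, and 0 to 1 with a library left out.

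With a replicate block the number of called genes went from 0 to 1 for co-culture in hypoxic GL261 cells, 0 to 2 for panobinostat in BV2 cells, 0 to 3 for hypoxia in BMDM with DMSO, 0 to 2 for panobinostat in BMDM and 0 to 2 for the difference of the hypoxia responses of BV2 cells and BMDM. The block ended the calls of G0s2 for co-culture in hypoxic BMDM (edgeR adjusted p = 0.0516) and for BV2 cells against BMDM (0.205). For panobinostat, Dgat2 (edgeR adjusted p = 0.000853) and Plin3 (0.0245) passed with the block in BV2 cells, and Dgat2 (0.0311) and Plin2 (0.0425) in BMDM. The mean correlation of same-numbered libraries was 0.055 in BV2 cells, 0.24 in GL261 cells, 0.18 in BMDM, and 0.36 and 0.45 in BV2 cells and BMDM of the panobinostat experiment.

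Counts over all genes depended most on the setting in the panobinostat experiment. Hypoxia in BMDM with DMSO had 72 called genes, 2078 with DESeq2, 3259 with no filter, 2127 with the block and 0 with only the groups compared. Panobinostat in BMDM had 0, 2023 with DESeq2, 66 with its size factors, 2867 with no filter and 2044 with the block, and in BV2 cells 1941 and 4025 with the block. The difference of the hypoxia responses had 106, 1103 with DESeq2, 1372 with no filter, 1298 with the block and 1 with only the groups compared, and that of the panobinostat responses 4, 221, 613, 166 and 2. Co-culture in normoxic GL261 cells had 78, then 155, 361, 226 and 124 under these 4 settings in turn, and in hypoxic ones 211, then 449, 737, 654 and 20. Co-culture in normoxic BMDM had 243, 600 with DESeq2, 1062 with no filter and 432 with the block. In hypoxic BMDM it had 1053, 1645 with DESeq2, 2141 with no filter and 231 with only the groups compared. The interaction in BV2 cells had 316, 665 with DESeq2 and 981 with no filter, that in GL261 cells 0, 47 and 73, and that in BMDM 0, 4 and 128. Hypoxia in BMDM grown alone had 3542, and 6289 with only the groups compared.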
